A study of Mus musculus with 12 samples.

Results

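The mRNAs described here encode the 5 mouse proteins with a YTH domain, namely Ythdf1, Ythdf2, Ythdf3, Ythdc1 and Ythdc2. The rule that picks them uses gene symbols and no measured value, though the members were chosen with earlier results of these data known. They are 5 of the 55573 genes in the count table. All 5 were among the 17126 genes that passed the filter on low counts (10 normalized counts or more on average across libraries) and were tested.

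RIP-seq, the sequencing of RNA that comes down with an immunoprecipitated protein, was applied to cultured hippocampal neurons of newborn C57BL/6 mice, an inbred strain, on day 14. There were 4 groups of 3 libraries. Input was total RNA of part of the lysate, with no antibody, and YTHDF1 RIP, YTHDF2 RIP and YTHDF3 RIP were RNA eluted from beads coupled to an antibody against the endogenous protein. No engineered allele is named for any group. All cells came from pooled pups of both sexes and had been given Ara-C against dividing glia, and the methods state that each replicate's lysate was split over the 3 RIPs with 1 shared input. Without a control antibody among the libraries analysed here, every enrichment is relative to Input.

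YTH domain proteins are readers of N6-methyladenosine (m6A), a methylated adenosine that is common in mRNA around stop codons and in 3′ untranslated regions, and the domain holds the methylated base in an aromatic pocket. YTHDF1, YTHDF2 and YTHDF3 are close paralogs of the cytoplasm, linked to mRNA decay, translation and, in neurons, transport. YTHDC1 is nuclear and takes part in splicing and export of methylated RNA, and YTHDC2 is an RNA helicase best known from meiosis. Whether the mRNAs of readers are themselves recovered with the readers is the question the values below bear on.

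All 5 reader mRNAs were enriched in the YTHDF1 RIP, as were 27.2% of all tested genes. That count fell to 3 in several alternative fits, among them scaling by library size alone, where the calls of Ythdf1 and Ythdc1 were lost. With the YTHDF2 antibody 1 of 5 was enriched, a share near the 15.7% of all genes, and with the YTHDF3 antibody 2 of 5, beside 16.4%. Ythdf3 mRNA rose most in the YTHDF1 RIP. It was also called in the other RIPs, but each of those calls was lost on leaving out any of 9 of the 12 libraries, with the replicate number as a block in the fit of all libraries, and after removal of the trend of each library with exonic length. Ythdf2 mRNA was recovered above Input with the YTHDF1 antibody, by 2.44-fold, and not detectably with the antibody against its own protein. None of the 3 YTHDF mRNAs was called higher in the RIP of the protein it encodes than in the other RIPs.

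The cultures and libraries were as follows. Total counts ranged from 6020072 to 38909592, and each member had between 148 and 6395 counts in a library. Summed over the 9 neuronal markers, Input libraries held 2943 to 4779 normalized CPM (counts scaled to library size), against 251 to 2425 for 5 astrocyte markers and 55.9 to 291 for 5 markers of the oligodendrocyte lineage. The 4 microglial markers summed to at most 3.64 CPM in Input and the 2 endothelial markers to at most 1.83. The oligodendrocyte lineage sum reached 1262 CPM in the YTHDF1 RIP, where the neuronal sum ranged from 4533 to 7630, and the part of these cells in the enrichments was not tested. Fewer cells of a type and less RNA per cell cannot be told apart in such bulk samples.

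In mammalian mRNA m6A often lies in GGACT or a close variant, and the matches to these letters in the YTHDF mRNAs are shown so that the members can be set beside each other. The annotated transcript with the longest coding sequence was taken for each gene (GENCODE M21, GRCm38) and searched on the transcribed strand only. Ythdf1 had 1 match, Ythdf2 had 5 and Ythdf3 had 1. The 7 stretches are given 5′ to 3′ with the match in capitals, numbered along the mRNA.
Ythdf1 match 1: tcccctgtGGACTacggcacc
Ythdf2 match 1: aaaaggatGGACTaaatgatg
Ythdf2 match 2: tctgctgtGGACTacaacaca
Ythdf2 match 3: gaaaattaGGACTttttttct
Ythdf2 match 4: aagacataGGACTtaactgga
Ythdf2 match 5: gtacccaaGGACTagaaacct
Ythdf3 match 1: gcatgactGGACTgaaaattg

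The match of Ythdf1 (chr2:180910960-180910980, minus strand) was coding and lay 310 bases before the end of the coding sequence. The second match of Ythdf2 (chr4:132204405-132204425, minus strand) was coding as well, 307 bases before that end. The first lay at chr4:132210790-132210810, 1656 bases before it. Matches 3, 4 and 5 of Ythdf2 were in the 3′ untranslated region, at chr4:132186834-132186854, chr4:132186753-132186773 and chr4:132185791-132185811, which is 80, 161 and 1123 bases past the end. The match of Ythdf3 (chr3:16204259-16204279, plus strand) was coding, 1179 bases before the end.

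Per kilobase of transcript, Ythdf2 held 1.21 matches and Ythdf3 held 0.203, while the median of 13373 tested genes with such a transcript was 1.04. Ythdf1 held 0.440, Ythdc2 held 0.416 with 3 matches, and Ythdc1 held none in 2960 bases. Only Ythdf2 among the 5 held a match within 200 bases of the end of its coding sequence, as did 40.6% of 11551 windows of that length. The looser letters GGAC, which include every GGACT, occurred 2.64 times per kilobase in Ythdf3, 4.60 times in Ythdf2 and 5.72 times in Ythdf1, with a median of 4.2 over genes. As a number per transcript, GGAC occurred 13 times in each of Ythdf1, Ythdf3 and Ythdc2, 19 times in Ythdf2 and 9 times in Ythdc1. These are letters in a sequence, not measured methylation, and their part in the recovery of the mRNAs was not tested.

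In Input the members ran from below the middle of the tested genes to high abundance. Per kilobase of all annotated exons, Ythdf1 was highest at 14.1 CPM, above 80.6% of tested genes. Ythdf2 (8.72) and Ythdf3 (8.43) followed and did not differ beyond their spread, with Ythdf2 above Ythdf3 in 1 of 3 libraries. Ythdc1 was at 5.03 and Ythdc2 at 2.34, above 56.2% and 36.8% of tested genes. These 2 steps in the order held in 3 of 3 Input libraries without overlap. The place of Ythdc1 rests on the length used, since its annotated exons cover 13651 bases. With the transcript of 2960 bases, an alternative chosen after seeing the data, Ythdc1 was at 23.2 ± 3.4 CPM per kilobase (SD, n = 3) against 20.6 ± 1.1 for Ythdf1. Both values divide the fragments of all annotated exons by the length of 1 transcript, so exons outside that transcript were still counted.

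Ythdf1 (ENSMUSG00000038848; chromosome 2, 180904377-180920949, minus strand) encodes the paralog best known for promoting translation. Normalized CPM in the 3 Input libraries were 46.0, 49.6 and 44.8. With the YTHDF1 antibody the values were 70.0, 52.4 and 96.1, with the YTHDF2 antibody 57.3, 54.3 and 68.2, and with the YTHDF3 antibody 64.5, 62.7 and 54.5. Every RIP library was above every Input library, and the 3 YTHDF1 RIP libraries were the most spread.

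Ythdf2 (ENSMUSG00000040025; chromosome 4, 132184912-132212303, minus strand) encodes the paralog that recruits the CCR4-NOT deadenylase. Input libraries held 38.6, 36.5 and 44.6 normalized CPM. With the YTHDF1 antibody the values were 84.8, 108 and 99.1, with the YTHDF2 antibody 42.3, 44.6 and 40.7, and with the YTHDF3 antibody 45.4, 40.5 and 46.6. The YTHDF1 RIP libraries stood apart from all others, while the remaining groups overlapped with Input. The pseudogenes Gm8401 and Gm6823 are 96.3% and 95.2% identical to Ythdf2 over 1740 and 1840 bases, and fragments that align to several places were counted at each. They had at most 85 counts in any library, against at least 299 for Ythdf2.

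Ythdf3 (ENSMUSG00000047213; chromosome 3, 16183212-16217037, plus strand) encodes the paralog described as working with both others. The mRNA had 49.6, 44.1 and 42.0 normalized CPM in Input. With the YTHDF1 antibody the values were 140, 271 and 232, with the YTHDF2 antibody 70.9, 65.0 and 71.1, and with the YTHDF3 antibody 68.1, 74.2 and 62.9. Each RIP group lay wholly above Input, and the YTHDF1 RIP lay wholly above the other RIPs.

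Ythdc1 (ENSMUSG00000035851; chromosome 5, 86804221-86836659, plus strand) encodes the nuclear reader. Its Input values were 72, 76.4 and 57.4 normalized CPM. With the YTHDF1 antibody the values were 98.1, 122 and 110, with the YTHDF2 antibody 123, 87.5 and 79.2, and with the YTHDF3 antibody 116, 103 and 101. All RIP libraries were above all Input libraries, and the RIP groups overlapped with each other. The gene Gm43055 lies on the same strand and shares 631 exonic bases with Ythdc1. Because a fragment overlapping several genes was counted for each, its counts, equal to 32.1% to 40.2% of those of Ythdc1, are not independent of them.

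Ythdc2 (ENSMUSG00000034653; chromosome 18, 44827746-44889724, plus strand) encodes the helicase and was the least abundant member. Input gave 22.9, 23.6 and 15.9 normalized CPM. With the YTHDF1 antibody the values were 37.7, 55.7 and 64.4, with the YTHDF2 antibody 35.9, 22.7 and 28.6, and with the YTHDF3 antibody 39.3, 34.3 and 27.1. The YTHDF1 and YTHDF3 RIP libraries were all above Input, and 1 YTHDF2 RIP library was within the Input range.

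**Figure D1:**
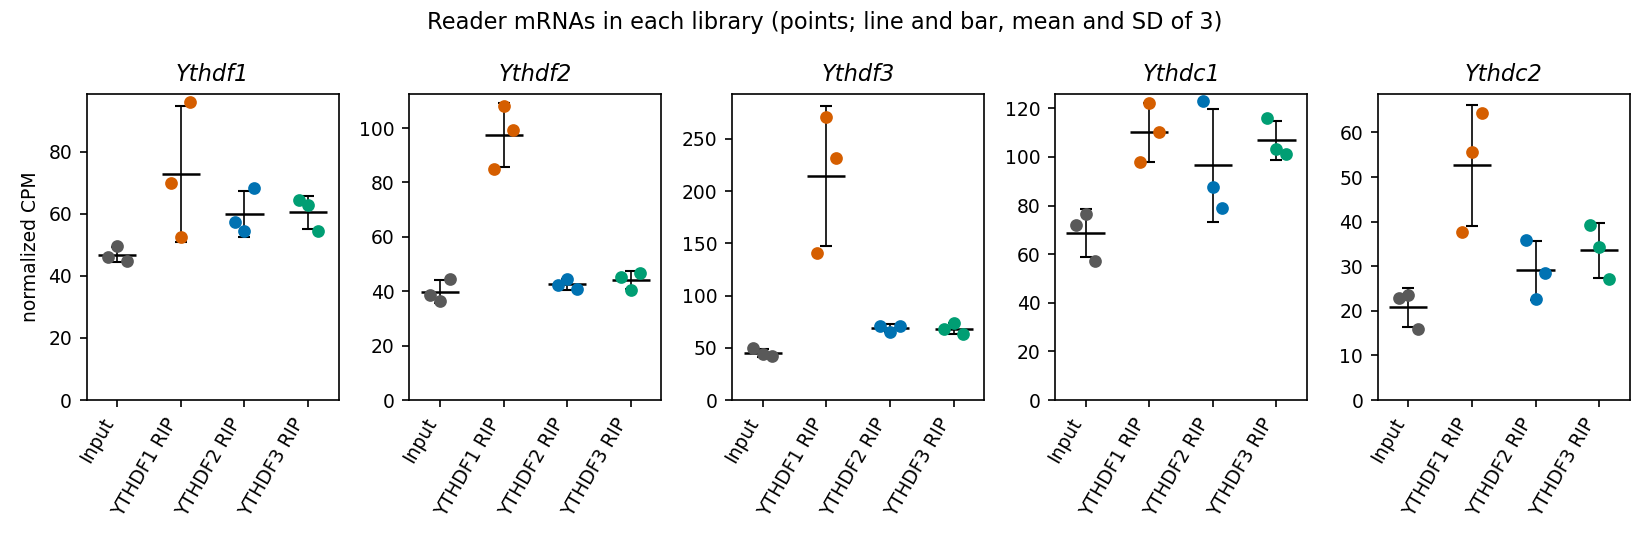
Normalized CPM of each reader mRNA (vertical axis, a separate linear scale from 0 in each panel) in the 12 libraries, with the mean as a line and the SD as a bar (n = 3 a group). The YTHDF1 RIP stands apart for Ythdf2, at 84.8 to 108 CPM, and for Ythdf3, at 140 to 271 CPM.

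Against Input, calls of enrichment needed a log2 fold change of 0.32 or more with an adjusted p of at most 0.05 (edgeR quasi-likelihood test, Benjamini-Hochberg over all genes tested, n = 3 against 3). In the YTHDF1 RIP 5 of 5 members were enriched, where 27.2% of all tested genes were enriched and 25.8% depleted. The median log2 fold change of the members was 1.29, beside 0.02 over all tested genes. Ythdf3 rose by 2.24 ± 0.23 on the log2 scale (SE; adjusted p 1.88e-05), a 4.74-fold increase above the value of 95.2% of tested genes. Ythdf2 rose by 1.29 ± 0.15 (adjusted p 5.40e-05) and Ythdc2 by 1.34 ± 0.26 (adjusted p 0.00123). Ythdf1 and Ythdc1 rose less, by 0.64 ± 0.21 (adjusted p 0.0223) and 0.68 ± 0.20 (adjusted p 0.0120).

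The calls of Ythdf2 and Ythdf3 in the YTHDF1 RIP held in 24 of 24 alternative fits, with log2 fold changes from 0.87 to 1.39 and from 1.81 to 2.48. Those of Ythdf1 and Ythdc1 did not. Ythdf1 was no longer called without Input replicate 1 (0.62, adjusted p 0.0604), Input replicate 3 (0.60, adjusted p 0.0625) or YTHDF1 RIP replicate 3 (0.30, adjusted p 0.216), and Ythdc1 was not without Input replicate 3 (0.56, adjusted p 0.0522). Both calls were also lost with library size alone, TMM from protein-coding genes, the authors' size factors and no filter on counts. They were lost as well in fits of the 2 groups alone, with or without the replicate block. After removal of the trend of each library with exonic length, Ythdc1 was at -0.46 ± 0.19 (adjusted p 0.0671). Its annotated exons together are longer than those of 96.7% of tested genes. Its transcript of 2960 bases is longer than that of 46.6% of tested genes with a coding transcript. Removal of a trend with transcript length was not tried. With the exonic trend removed, Ythdc2 was at 0.59 ± 0.23 (adjusted p 0.0562), while Ythdf1 was at 0.78 ± 0.22 (adjusted p 0.0126).

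In the YTHDF2 RIP 1 of 5 members was enriched, beside 15.7% of all tested genes (19% were depleted), and the members' median log2 fold change was 0.48. That member was Ythdf3, at 0.61 ± 0.22 (adjusted p 0.0483). The call was lost on leaving out any of 9 of the 12 libraries (each Input, YTHDF2 RIP and YTHDF3 RIP library), for example without Input replicate 3 at 0.56 (adjusted p 0.123), and with the replicate number as a block, where Ythdf3 was at 0.61 (adjusted p 0.0674) and no member was called. Same-numbered Input and YTHDF2 RIP libraries did not all deviate together, so that block may not join libraries of 1 lysate. Ythdc1 was at 0.49 ± 0.20 (adjusted p 0.0715), Ythdc2 at 0.48 ± 0.26 (adjusted p 0.171) and Ythdf1 at 0.36 ± 0.21 (adjusted p 0.206). Ythdf2 was at 0.09 ± 0.15 (adjusted p 0.662), and its 95% interval from -0.24 to 0.43 bounds the change in the RIP of its own protein.

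In the YTHDF3 RIP 2 of 5 members were enriched, beside 16.4% of all tested genes (23% were depleted), and the members' median was 0.60. Ythdc1 rose by 0.64 ± 0.20 (adjusted p 0.0222) and Ythdf3 by 0.60 ± 0.22 (adjusted p 0.0463). Ythdc2 was at 0.69 ± 0.26 (adjusted p 0.0520), Ythdf1 at 0.37 ± 0.21 (adjusted p 0.180) and Ythdf2 at 0.15 ± 0.15 (adjusted p 0.469). Ythdf3 lost its call without any 1 of the same 9 libraries, and Ythdc1 lost its call without Input replicate 3 (0.54, adjusted p 0.0769) or YTHDF3 RIP replicate 1 (0.58, adjusted p 0.0652). With the length trend removed, again by all annotated exons, Ythdc1 was at -0.01 ± 0.19.

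Same-numbered Input and YTHDF3 RIP libraries deviated together, and fitted as pairs on their own with the replicate number as a block they called 4 of 5 members, beside 36.2% of all tested genes. In that fit Ythdc2 rose by 0.76 ± 0.10 (adjusted p 6.83e-07), Ythdc1 by 0.71 ± 0.10 (adjusted p 7.09e-07), Ythdf3 by 0.67 ± 0.10 (adjusted p 3.97e-06) and Ythdf1 by 0.44 ± 0.09 (adjusted p 0.000193). Ythdf2 was at 0.22 ± 0.09 (adjusted p 0.0419), under the threshold of 0.32. The 2 groups alone without the block called the same 4 members, beside 22.1% of all tested genes. With the block in the fit of all 12 libraries 1 member was called, Ythdc1, and Ythdf3 was at 0.59 ± 0.23 (adjusted p 0.0672).

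**Figure D2:**
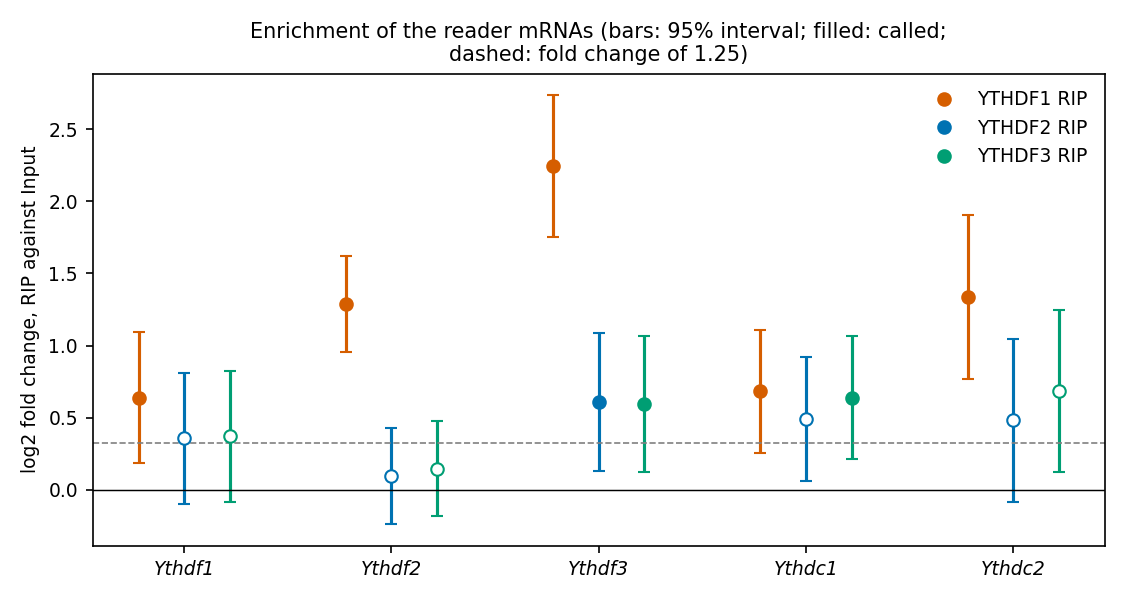
Log2 fold change of each reader mRNA in the 3 RIP groups against Input (vertical axis), with 95% intervals of the edgeR fit, filled points for calls and a dashed line at the threshold of 0.32. The YTHDF1 RIP points run from 0.64 to 2.24, while those of the YTHDF2 and YTHDF3 RIPs run from 0.09 to 0.69.

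The 3 comparisons share the Input libraries, so the RIPs were also compared directly, with a fold change of at least 2 required for a call. Ythdf3 and Ythdf2 were higher in the YTHDF1 RIP than in the YTHDF2 RIP, by 1.64 ± 0.22 (adjusted p 0.000299) and 1.19 ± 0.15 (adjusted p 0.000228), and 11.4% of tested genes were called in that direction and 6.1% in the other. Against the YTHDF3 RIP the differences were 1.65 ± 0.22 (adjusted p 0.000472) and 1.14 ± 0.15 (adjusted p 0.000463), with 10.8% of tested genes called higher and 3.63% lower. Without YTHDF1 RIP replicate 2 or 3, Ythdf2 was at 0.94 and 0.98 against the YTHDF3 RIP, just under 2-fold, with adjusted p of 0.00155 and 0.00269.

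Ythdc2 was higher in the YTHDF1 RIP than in the YTHDF2 RIP by 0.86 ± 0.26 (adjusted p 0.0287), which is under 2-fold, and its groups did not overlap. Ythdf1 and Ythdc1 gave no call in any pair of RIPs. For Ythdc1 the 95% interval of the difference between the YTHDF1 and YTHDF3 RIPs ran from -0.38 to 0.47, and for Ythdf1 from -0.18 to 0.72. Between the YTHDF2 and YTHDF3 RIPs no member was called (3.95% of tested genes were higher and 1.16% lower) by edgeR or by DESeq2, and none had an unadjusted p under 0.05. There the differences ran from -0.21 for Ythdc2 to 0.01 for Ythdf3, and their 95% intervals lay between -0.77 and 0.48.

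A test of any difference among the 3 RIP groups passed for Ythdf2 (adjusted p 0.000172), Ythdf3 (adjusted p 0.000186) and Ythdc2 (adjusted p 0.0441), as it did for 32.3% of tested genes. It did not pass for Ythdf1 (adjusted p 0.458) or Ythdc1 (adjusted p 0.705).

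Each YTHDF mRNA was then compared between the RIP of its own protein and the mean of the other RIPs. Ythdf1 was at 0.27 ± 0.18 (adjusted p 0.293), where 18.7% of tested genes were called higher and 8.82% lower, and the direction turned to -0.08 without YTHDF1 RIP replicate 3. Ythdf2 was lower in its own RIP by -0.62 ± 0.13 (adjusted p 0.00832; 11% of tested genes were called lower and 9.58% higher), and this held in 22 of 22 alternative fits. Ythdf3 was lower in its own RIP by -0.83 ± 0.19 (adjusted p 0.0226; 7.59% of tested genes were called lower and 3.36% higher), a call lost without YTHDF3 RIP replicate 1, 2 or 3 at adjusted p of 0.0783, 0.0905 and 0.0897 with values from -0.87 to -0.77. That call was also lost with library size alone (-0.32, adjusted p 0.146), the authors' size factors (-0.43, adjusted p 0.167) and no filter on counts (-0.63, adjusted p 0.142). For both Ythdf2 and Ythdf3, the values above show the YTHDF1 RIP as the high group.

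Scaling moved these values together. Relative to TMM, library size alone shifted the median log2 fold change over all tested genes from 0.02 to -0.38 in the YTHDF1 RIP and from 0.05 to 0.38 in the YTHDF3 RIP, and the size factors recovered from the authors' tables gave -0.25 and 0.37. The members moved with that median. Under library size alone Ythdf1 was at 0.24 (adjusted p 0.345) and Ythdf3 at 1.81 in the YTHDF1 RIP, and all 5 members were called in the YTHDF3 RIP, where 28.2% of tested genes were.

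**Figure D3:**
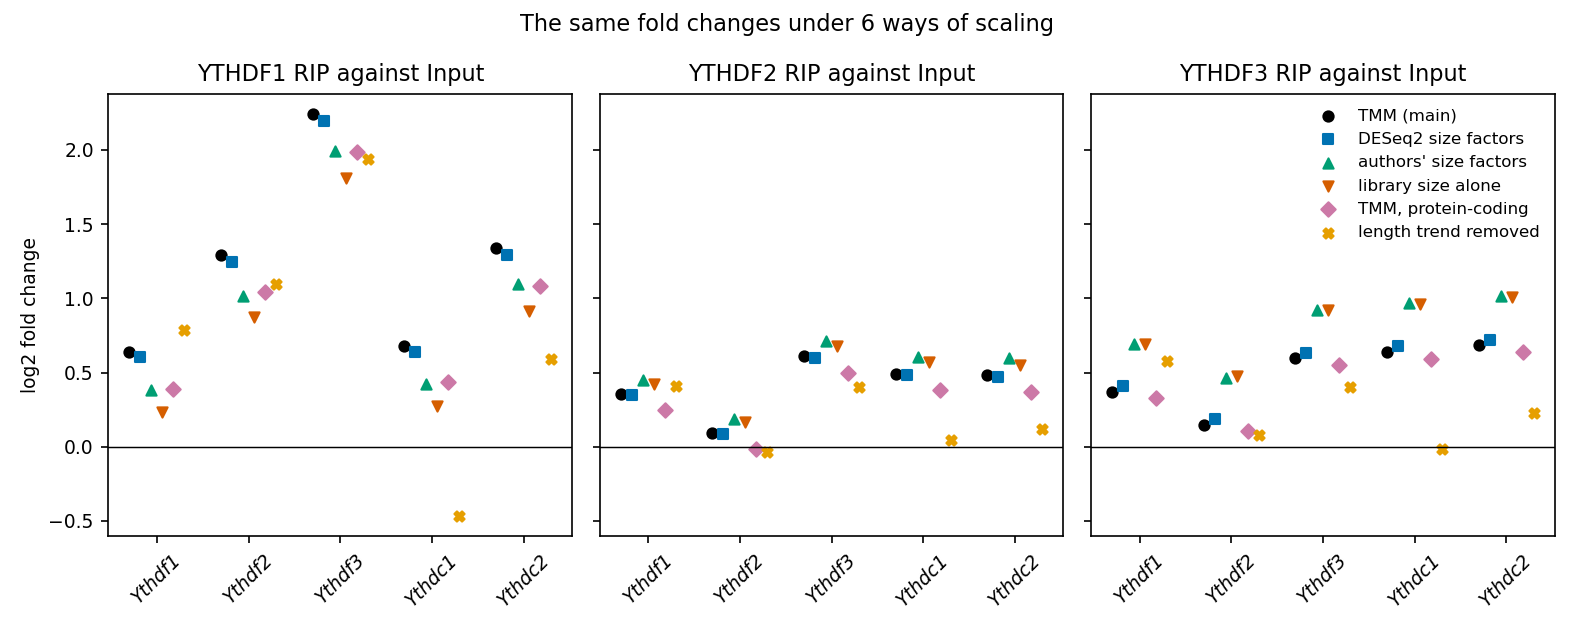
Log2 fold change against Input (vertical axis) of the 5 reader mRNAs in each RIP under 6 ways of scaling the libraries, 1 symbol each. Ythdf3 stays highest in the YTHDF1 RIP, from 1.81 to 2.24, and removal of the length trend moves Ythdc1 from 0.68 to -0.46.

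The ratio of 2 mRNAs within a library does not depend on scaling. The ratio of Ythdf3 to Ythdf2, per kilobase, was 1.1, 1.03 and 0.803 in Input. The YTHDF1 RIP libraries had ratios of 1.41, 2.14 and 1.99, those of the YTHDF2 RIP 1.43, 1.24 and 1.49, and those of the YTHDF3 RIP 1.28, 1.56 and 1.15. In each RIP group it lay above every Input library. The differences in log2 ratio were 0.91, 0.51 and 0.45, each with p = 0.1 in a two-sided exact permutation test, the smallest that 3 against 3 allows, and 0.18 adjusted over 9 such tests. The ratio of Ythdf3 to Ythdf1 was 0.550 to 0.666 in Input and 1.24 to 3.20 in the YTHDF1 RIP (difference in log2 ratio 1.60, exact permutation p = 0.1), and it overlapped with Input in the other RIPs. Ythdf2 to Ythdf1 was 0.534 to 0.722 in Input and 0.748 to 1.50 in the YTHDF1 RIP.

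Expressed as a share of the 3 YTHDF mRNAs per kilobase, Ythdf3 made up 27.0% ± 2.1 in Input (SD, n = 3) and 47.3% ± 8.3 in the YTHDF1 RIP. Its share was 32.0% ± 1.1 with the YTHDF2 antibody and 31.3% ± 1.7 with the YTHDF3 antibody. Ythdf1 fell from 45.1% ± 2.5 of the 3 in Input to 26.8% ± 8.0 in the YTHDF1 RIP, without overlap between the libraries, and was at 44.8% in the other RIPs. The order of the paralogs per kilobase was Ythdf1, Ythdf3, Ythdf2 in 3 of 3 libraries of the YTHDF2 RIP and of the YTHDF3 RIP, whereas Ythdf3 was highest in 3 of 3 libraries of the YTHDF1 RIP.

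**Figure D4:**
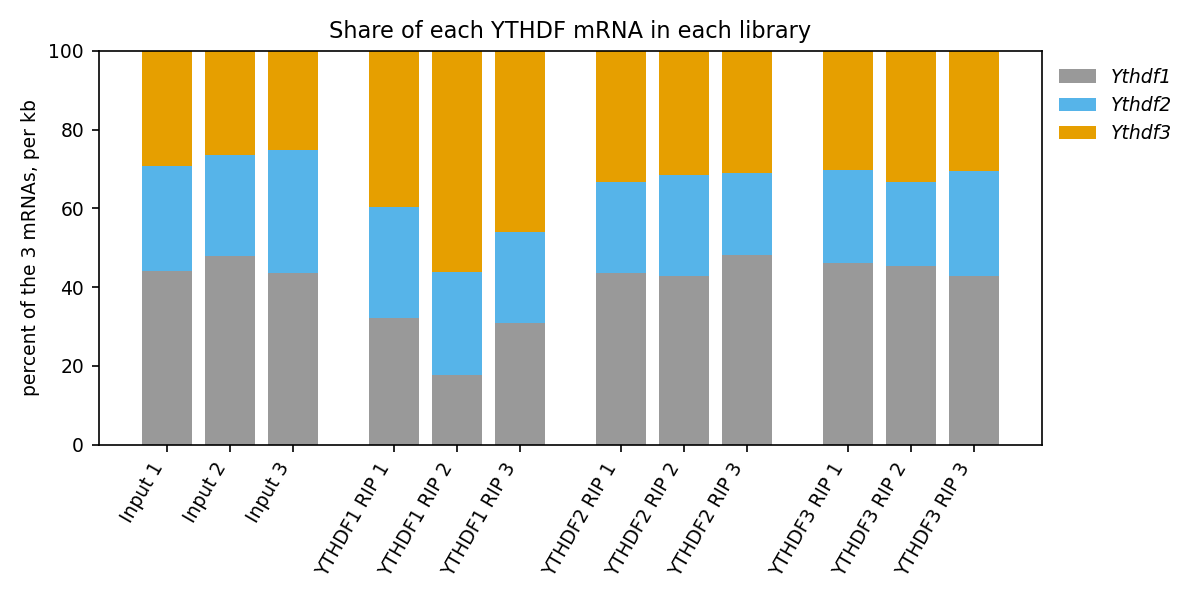
Share of Ythdf1, Ythdf2 and Ythdf3 in the sum of the 3, per kilobase of exons, in each library (stacked bars, percent). Ythdf3 takes 39.7% to 56.2% in the YTHDF1 RIP and 25.2% to 33.3% in the other 9 libraries.

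Across the 12 libraries the log2 CPM of Ythdf2 and Ythdf3 ran most closely together of any 2 members (Pearson r = 0.947), followed by Ythdf3 and Ythdc2 (0.893), and Ythdc1 and Ythdf2 least (0.476). Depth and group are shared by all points, so these are descriptions. Among 10997 genes averaging 100 normalized counts or more, those most like Ythdf3 were Lnpep, an aminopeptidase (r = 0.991), Pcdh19, a protocadherin of neurons (0.989), and Ubn2, a subunit of a histone chaperone (0.988), at 3.57, 3.89 and 1.46 on the log2 scale in the YTHDF1 RIP against Input. Those most like Ythdf2 were Zhx2 (0.988), Pou2f1 (0.983) and Lcor (0.982), all genes of transcriptional regulators.

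Those most like Ythdf1 were Tanc1, a postsynaptic scaffold (0.970), Tecpr2, linked to autophagy (0.968), and Mtf1, the metal-responsive transcription factor (0.966). For Ythdc2 they were Tbc1d32 (0.978), Smarca2, a chromatin remodelling ATPase (0.974), and Kif5c, a neuronal kinesin (0.971). For Ythdc1 the closest was the overlapping Gm43055 (0.976), then the kinesin subunit Kif3a (0.928) and the ubiquitin ligase Marchf6 (0.925).

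The other genes of the m6A pathway were described from 8 lists of 57 genes, 56 of them tested. Of these, 22 were enriched and 7 depleted with the YTHDF1 antibody, 19 and 5 with the YTHDF2 antibody, and 17 and 5 with the YTHDF3 antibody, with median log2 fold changes of 0.40, 0.26 and 0.08. Over all tested genes 27.2%, 15.7% and 16.4% were enriched and 25.8%, 19% and 23% depleted. With the length trend removed the counts were 15 and 16, 11 and 9, and 8 and 8, and under library size alone 17 and 14, 20 and 5, and 23 and 3.

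Of the 8 subunits of the m6A writer complex, 5, 3 and 5 were enriched in the YTHDF1, YTHDF2 and YTHDF3 RIPs, beside 27.2%, 15.7% and 16.4% of all tested genes. None was depleted, also under the 6 other scalings and fits tried for the lists, where 4, 3 and 2 to 6 were enriched. Rbm15, an RNA-binding adaptor of the complex, rose by 4.87 ± 0.27 (adjusted p 1.27e-06), 1.00 and 0.78 in the 3 RIPs, and its relative Rbm15b by 2.43, 1.74 and 1.37. The scaffold subunit Virma rose by 2.0, 1.31 and 1.29. Zc3h13, which anchors the complex in the nucleus, rose by 1.63 with the YTHDF1 antibody and by 0.68 with the YTHDF3 antibody. The catalytic subunit Mettl3 was at 0.22, 0.39 and 0.64 (adjusted p 0.0492 in the last, its only call, lost under 3 of the 6 alternatives), its partner Mettl14 at 0.21, -0.37 and -0.12, and the adaptor Wtap at 0.60 (adjusted p 0.0424), -0.02 and 0.30. Wtap's call was lost under each of the 6 alternatives, and those of Rbm15 and Zc3h13 in the YTHDF3 RIP under 1.

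The erasers went otherwise. Fto, a demethylase, fell by 0.51, 0.84 and 0.69 (adjusted p 0.0195, 0.00246 and 0.00515). It stayed below Input under each of the 6 alternatives, 2 of which lost its call in the YTHDF3 RIP. Alkbh5, the other demethylase, rose by 0.59 in the YTHDF2 RIP (adjusted p 0.0282), a call lost under 2 of the 6 alternatives, and was at 0.00 and 0.11 in the others. Among 5 other methyltransferase genes, Mettl5 fell by 1.62 in the YTHDF1 RIP and by over 1.2 in the others, and its partner Trmt112 by 1.36 and 1.98 in the YTHDF1 and YTHDF3 RIPs, while Mettl16 rose by 1.1 in the YTHDF1 RIP and Zcchc4 by 0.72 in the YTHDF2 RIP. The calls of Mettl16 and Zcchc4 were each lost under 3 of the 6 alternatives, where they went as low as -0.09 and 0.33, and those of Trmt112 in the YTHDF1 RIP and Mettl5 in the YTHDF3 RIP under 1.

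**Figure D5:**
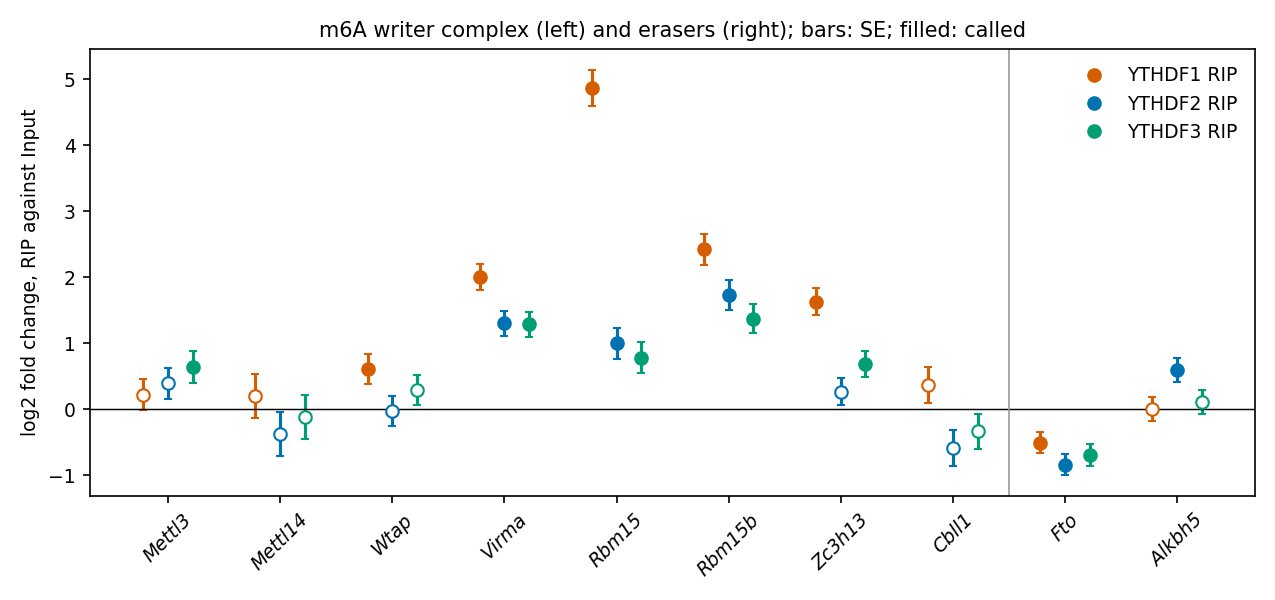
Log2 fold change against Input with SE bars (vertical axis) of 8 writer complex mRNAs and 2 eraser mRNAs in the 3 RIP groups, filled where called. Rbm15 reaches 4.87 in the YTHDF1 RIP, and Fto lies below 0 in all 3.

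Of 18 mRNAs of decay factors that YTHDF proteins recruit or that act beside them, 9, 9 and 8 were enriched and 4, 2 and 2 depleted in the 3 RIPs, beside the shares of all genes given above. With the length trend removed 6, 4 and 3 were enriched and 5, 2 and 2 depleted, and under library size alone, TMM from protein-coding genes or the authors' size factors the split in the YTHDF1 RIP was 8 and 7. Pan3, of the PAN2-PAN3 deadenylase, rose by 2.96 with the YTHDF1 antibody and by 1.05 with the YTHDF2 antibody. The deadenylase Cnot6l rose by 2.94 in the YTHDF1 RIP, whose libraries held it at 287 ± 160 CPM (SD, n = 3). Dcp2, the decapping enzyme, rose by 1.02 in the YTHDF2 RIP, and the CCR4-NOT scaffold Cnot1 by 1.15 and the helicase Ddx6 by 1.00 in the YTHDF3 RIP. Rida, which bridges YTHDF2 to an endonuclease, fell by 2.32, 1.26 and 2.72, Cnot7 by 1.75 in the YTHDF1 RIP, and Cnot9 by 0.77 and 0.70 in the YTHDF2 and YTHDF3 RIPs. The calls of Rida in the YTHDF2 RIP and Cnot9 in the YTHDF3 RIP were lost under 2 of the 6 alternatives, and that of Cnot1 under 1.

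Of 11 other RNA-binding proteins linked to m6A, 4, 2 and 2 were enriched and 0, 1 and 0 depleted. Of all tested genes 27.2%, 15.7% and 16.4% were enriched, and the counts in the YTHDF2 and YTHDF3 RIPs are near those shares. Elavl1, a stabilizer of AU-rich mRNA, rose by 4.2 in the YTHDF1 RIP and fell by 1.23 in the YTHDF2 RIP. Its YTHDF1 RIP libraries were widely spread, at 1365 ± 1099 CPM (SD, n = 3), against 74.3 ± 4.0 in Input. Prrc2a rose by 1.70, 1.02 and 1.36, Fxr2 by 1.57, 0.59 and 0.62, and Fxr1 by 0.90 in the YTHDF1 RIP. Elavl1 lost its call in the YTHDF2 RIP under 2 of the 6 alternatives, and Fxr1 its call under 1. Of 4 nuclear partners of YTHDC1, the export receptor Nxf1 rose by 1.24 and 1.09 in the YTHDF2 and YTHDF3 RIPs, and none was called in the YTHDF1 RIP. The partners of YTHDC2 in meiosis were scarcely present, with Meioc at 0 counts in Input and Rbm46 at 1.06 CPM. Of 7 stress granule genes, 3, 2 and 1 were enriched and none was depleted, beside the same shares of all genes. Tial1 was at 3.42, Atxn2 at 0.68 and Ubap2l at 0.61 in the YTHDF1 RIP, whose libraries held Tial1 at 377 ± 207 CPM (SD, n = 3). In the YTHDF2 RIP Tia1 was at 0.94 and G3bp1 at 0.88, and in the YTHDF3 RIP Tia1 was at 1.17. With the length trend removed the list turned to 1 enriched and 5 depleted, 1 and 3, and 0 and 2, and its median in the YTHDF1 RIP went from 0.43 to -0.75, where 22.2% of all tested genes were enriched and 24.4% depleted. The calls of Atxn2 and Ubap2l were lost under 4 of the 6 alternatives, where they went as low as -0.64 and -0.87, and both calls of Tia1 under 1.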

How the data were processed

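RIP-seq libraries were made with a stranded total-RNA kit carrying unique molecular identifiers (UMIs). Per the submitters' notes and the file headers, the authors extracted UMIs with UMI-tools 1.1.1, trimmed with cutadapt 3.4, aligned to mm10 with STAR 2.7.7a, removed duplicates by UMI, and counted fragments per gene with featureCounts 2.0.1 (Ensembl release 97, strand setting 2), and these raw counts were deposited. A fragment was counted for every gene it overlapped and for every reported alignment. The authors also deposited DESeq2 tables for each RIP with fold changes and p-values, which were not used. Their mean normalized signal gave back the size factors the authors used.

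A quasi-likelihood model of 4 groups was fitted to all 12 libraries with edgeR 4.0.16 in R 4.3.3, on the 17126 genes that averaged 10 normalized counts or more, with TMM factors. Calls needed an adjusted p of at most 0.05 and a log2 fold change of 0.32 against Input or 1 between RIPs. SE is the log2 fold change divided by the square root of F. CPM are counts over the TMM-scaled library size, and log2 CPM used a prior count of 2. DESeq2 1.42.0 was an alternative. Replicates within a group are separate lysates, but the methods split each lysate over the RIPs. The main fit treats the 12 libraries as independent, and its p-values set a group difference against the spread between libraries within groups. The methods give 1 input per replicate. Deviations of same-numbered Input and YTHDF3 RIP libraries correlated at 0.528 to 0.829, while in each other pair of groups at least 1 correlation was under 0.1. Across numbers, Input replicate 3 correlated with replicate 2 of the YTHDF1 RIP at 0.467 and of the YTHDF2 RIP at 0.560. Whether equal numbers mark 1 lysate in those groups is not known, and the block over all 12 libraries assumes it. Members and lists were chosen with earlier results of these data known. Named genes were the members, the 3 genes most like each, the 2 highest and 2 lowest calls of each list against Input, and Mettl3, Mettl14, Wtap, Fto and Alkbh5. Meioc and Rbm46 were added after their values were seen.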

Additional observations from a re-analysis of the deposited data

How the results depend on the processing

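The enrichment of Ythdf3 and Ythdf2 in the YTHDF1 RIP was called under every alternative run. So was the lower Ythdf2 in its own RIP than in the mean of the other RIPs, which includes the high YTHDF1 RIP. In the main fit Ythdf2 in its own RIP was at 0.09 against Input and -0.05 against the YTHDF3 RIP, neither called. The test of any difference among RIPs called 2 to 3 members. Leaving out 1 library gave 3 to 5 members called with the YTHDF1 antibody, 0 to 1 with the YTHDF2 antibody, 0 to 4 with the YTHDF3 antibody, and 1 to 2 between the YTHDF1 and YTHDF3 RIPs. Against Input in the order YTHDF1, YTHDF2 and YTHDF3 RIP, the counts were 3, 2 and 5 with library size alone, 3, 2 and 4 with the authors' size factors, 3, 0 and 1 with TMM from protein-coding genes, and 3, 0 and 0 with the length trend removed, with or without the block. No filter gave 3 and 0 for the YTHDF1 and YTHDF2 RIPs, while DESeq2's Wald test and a minimum of 50 gave 2 for the latter. The replicate block gave 5, 0 and 1, and fits of 2 groups alone, with or without the block, gave 3, 1 and 4. The methods give 1 lysate per replicate, but only same-numbered Input and YTHDF3 RIP libraries all deviated together. The block in the fit of all libraries may therefore not join libraries of 1 lysate. Between the YTHDF1 and YTHDF2 RIPs 1 member was called with library size alone and with the authors' size factors. Between the YTHDF1 and YTHDF3 RIPs 0 were called with library size alone, and 1 with TMM from protein-coding genes, the authors' size factors or no filter. The cause was not tested. Under library size alone the split of all genes in the YTHDF1 RIP was 18% higher and 36.3% lower, and in the YTHDF3 RIP 28.2% and 17.7%.

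Against the mean of the other RIPs, Ythdf1 was at -0.32 in its own RIP with library size alone and -0.19 with the authors' size factors, and ran from -0.080 to 0.38 on leaving out 1 library. Ythdf3 was at -0.32, -0.43 and -0.63 in its own RIP with library size alone, the authors' size factors and no filter, with its call lost in each. It ran from -0.95 to -0.63 on leaving out 1 library. The other values that turned sign had not been called, except Ythdc1 against Input in the YTHDF1 and YTHDF3 RIPs. With library size alone, the YTHDF1 minus YTHDF3 RIP difference was -0.46 for Ythdf1, -0.69 for Ythdc1 and -0.091 for Ythdc2, the YTHDF1 minus YTHDF2 difference -0.18 for Ythdf1 and -0.30 for Ythdc1, and the YTHDF2 minus YTHDF3 difference -0.24 for Ythdf3. With the authors' size factors these were -0.31 (Ythdf1) and -0.54 (Ythdc1), -0.070 and -0.18, and -0.21. Ythdc1 between the YTHDF1 and YTHDF3 RIPs was at -0.16 with TMM from protein-coding genes, -0.13 with no filter, -0.078 with a minimum of 50, -0.035 with DESeq2 and -0.036 with its size factors, where Ythdf3 between the YTHDF2 and YTHDF3 RIPs was at -0.056, -0.22, -0.0019, -0.037 and -0.037. Ythdf2 in the YTHDF2 RIP against Input was at -0.014 with TMM from protein-coding genes, -0.0071 with no filter, -0.034 with the length trend removed and -0.032 with the block as well. With the length trend removed Ythdc1 was at -0.46 and -0.013 against Input in the YTHDF1 and YTHDF3 RIPs, -0.51 and -0.45 in the YTHDF1 RIP against the YTHDF2 and YTHDF3 RIPs, and 0.056 between these. With the block as well these were -0.46, -0.0035, -0.49, -0.46 and 0.034. Leaving out 1 library, Ythdf1 ran from -0.039 to 0.42, -0.12 to 0.34 and -0.12 to 0.053 between the YTHDF1 and YTHDF2, YTHDF1 and YTHDF3, and YTHDF2 and YTHDF3 RIPs, Ythdc1 from -0.16 to 0.13 between the YTHDF1 and YTHDF3 RIPs, and Ythdf3 from -0.059 to 0.055 between the YTHDF2 and YTHDF3 RIPs. By transcript length, still with fragments of all annotated exons, Input levels per kilobase were 20.6, 9.66, 9.18, 23.2 and 2.88 CPM for Ythdf1, Ythdf2, Ythdf3, Ythdc1 and Ythdc2. With 3 libraries a group, exact tests cannot go below p = 0.1.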
